A study of Rattus norvegicus with 18 samples.

Results

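Chlorothalonil was compared with its solvent after 72 h of exposure in a rat kidney cell line. The comparison took the 6 of 18 arrays labelled 72 h, 3 chlorothalonil and 3 DMSO, and described every measurable gene on them. NRK-52E is an established epithelial line of proximal tubule type, and its genotype is labelled Osborne-Mendel. All cells were grown to confluence in medium with fetal calf serum and all received 0.1% DMSO. The treated wells held 1.1 µM chlorothalonil, the dose labelled as inhibiting by 10% at 72 h (IC10), and the control wells held DMSO alone. Other arrays of the series stopped the same exposure at 6 h or 24 h, each time with its own 3 DMSO arrays. Expression was read from total RNA on a rat Affymetrix array.

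Chlorothalonil is a chlorinated nitrile fungicide that reacts with thiols, including glutathione and the cysteines of proteins. Its glutathione conjugates are processed in the proximal tubule, and the kidney of the rat is a known target of its toxicity. Cells meet reactive compounds with several transcription programmes: heat shock factor and the proteasome genes answer damaged protein, NRF2 answers oxidants, ATF4 answers stalled translation, and p53 answers DNA damage.

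After 72 h the expression of most measured genes differed between the arms. Of 9148 genes tested, 5880 passed the limma test at a Benjamini-Hochberg adjusted p under 0.05, which is 64.3% of the genes. In the chlorothalonil arrays 3407 of them (37.2%) were higher and 2473 (27.0%) lower. The sizes were mostly modest, with a median absolute log2 change of 0.57 among the called genes and quartiles of -0.29 and 0.45 over all genes. At least 2-fold changes were called for 663 genes upward (7.25%) and 397 downward (4.34%). At least 8-fold changes numbered 21 upward and 17 downward, and at least 16-fold changes 9 upward and 2 downward. The values of the arms did not overlap for 6450 genes (70.5%). The labels call the arrays biological replicates. The p-values and SEs rest on the spread within groups, pooled over the arrays of 6 h, 24 h and 72 h. They can understate the spread at 72 h for a gene that varied less at the earlier times. Fitted on the arrays of 72 h alone, limma called 5902 genes, 3387 higher and 2515 lower. In cultures measured in bulk, fewer cells of a state and less RNA per cell cannot be told apart.

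The direction of the small changes depends on how the arrays are scaled. The median change of all genes was 0.07 on the deposited log2 scale. The poly-A control RNAs, bacterial transcripts put into the sample before labelling, read 10.68 ± 0.21 (SD, n = 3) in the chlorothalonil arrays and 10.01 ± 0.12 in the DMSO arrays, a difference of 0.67. Scaling each array to them moved the median of all genes to -0.60, and 8.26% of the calls were then upward, against 57.9% as deposited. Scaling to the hybridization controls, which differed by 0.29, left 30.5% of the calls upward. Rises under 0.67 on the deposited scale are therefore falls on the poly-A scale, and gene lists are described below also by their median less that of all genes, which a common shift of an array does not move. Counts within a list stand against the shares of all genes, 37.2% called higher and 27.0% lower as deposited. With poly-A scaling those shares were 3.41% and 37.9%. These scaled counts and those of the lists below come from the fit over the arrays of all times. On the arrays of 72 h alone poly-A scaling called 576 genes higher and 5754 lower, with 9.1% of the calls upward. A gene not called with scaling is therefore not shown to be unchanged. Arrays correlated at 0.9941 to 0.9976 within an arm and at 0.9473 to 0.9531 between the arms. The 5S ribosomal RNA control probe set read 9.95 ± 0.24 in the treated arrays and 6.05 ± 0.73 in the DMSO arrays. The actin and GAPDH control sets differed by -0.10 to 0.45, and their 5′ and 3′ probe sets moved alike.

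**Figure D1:**
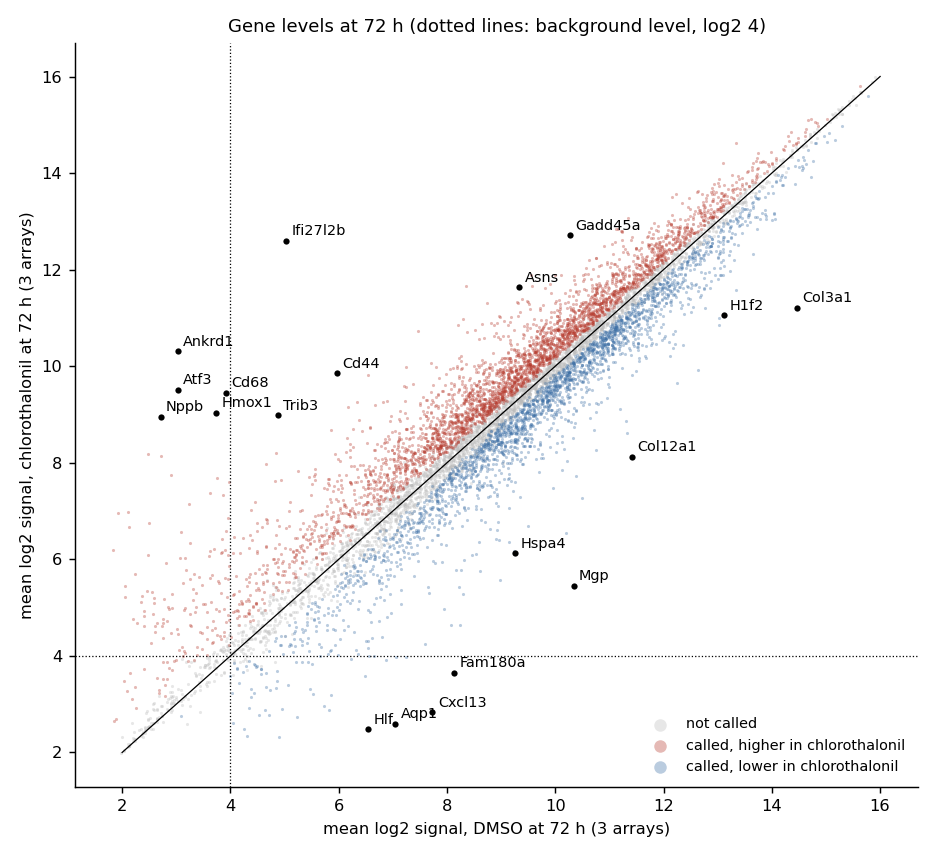
Mean log2 signal of each of 9148 genes in the 3 chlorothalonil arrays (vertical axis) against the 3 DMSO arrays (horizontal axis) at 72 h; red and blue points are genes called higher and lower with limma, and the dotted lines mark the background level of log2 4. Ankrd1, Atf3, Nppb and Hmox1 lie left of the vertical line, at background in DMSO, while Cxcl13, Aqp1 and Hlf lie below the horizontal line, at background in chlorothalonil.

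The largest rise among named genes measured in both arms was that of Ifi27l2b. This gene, a member of the interferon-inducible Ifi27 family, read 12.53, 12.60 and 12.66 in the chlorothalonil arrays and 4.57, 5.27 and 5.24 in the DMSO arrays, a 190-fold difference (log2 7.57, SE 0.16, adjusted p = 9.99e-14). All treated arrays lay far above all controls. Folds here are differences from the DMSO arrays of the same time, not changes over time. The DMSO mean of Ifi27l2b had stood at 10.14 at 6 h and 7.38 at 24 h, and its treated mean at 10.92 and 12.25. The control level thus fell with time while the treated level rose. Cd68, a lysosomal glycoprotein best known from macrophages, read 9.52, 9.61 and 9.23 against 3.39, 4.32 and 4.02, a 46.7-fold difference. The control values of Cd68 straddled the background level of log2 4, so its fold change is uncertain in size although the arms were far apart. Cd44, the hyaluronan receptor that injured tubules express, read 9.77, 9.87 and 9.94 against 5.82, 6.05 and 6.00, a 15.0-fold rise. The DMSO mean of Cd44 had been 9.55 at 6 h and 8.36 at 24 h, and its treated mean 10.4 and 10.13. That of Cd68 in DMSO had not been higher earlier, at 2.43 and 2.59. Hapln3, which links hyaluronan to proteoglycans, read 7.90, 7.68 and 7.47 against 3.64, 4.08 and 3.55. Its fitted 15.2-fold rise rests on control values around the background level, so that size is uncertain too.

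Other genes of the 20 highest had varied roles. Zfand2a, an arsenite-inducible partner of the proteasome, rose 9.89-fold from 8.36 ± 0.27 to 11.67 ± 0.17. Ppp1r15a, the stress-induced phosphatase subunit that restores translation, rose 9.67-fold, and Usp18, which removes the ubiquitin-like modifier Isg15, rose 10.2-fold. The nucleotide and folate enzymes Cda (cytidine deaminase) and Mthfd2 (mitochondrial folate metabolism) rose 9.52-fold and 7.81-fold. Mnd1, a meiotic recombination factor, rose 7.56-fold and Polh, the polymerase that copies past ultraviolet lesions, rose 7.02-fold. The small heat shock protein Hspb8 read 10.92, 11.03 and 10.96 against 8.39, 8.18 and 8.30, a 6.43-fold rise with no overlap. Trib3, also among the 20, is described with the ATF4 genes. The remaining genes of the 20 were Map3k7cl, Psca, Car3, Pi4k2b, Nmt2, Agps and Dpysl3, which rose between 6.67-fold and 12.4-fold. Dpysl3 was the least certain of them, since its DMSO arrays spread from 2.33 to 5.32 (adjusted p = 9.66e-04). At least 1 DMSO array of Map3k7cl and of Psca also lay below log2 4. Other probe sets of Car3 and Nmt2 gave changes of 0.03 and -0.30 that did not pass the test. Between 6 h and 72 h the mean of Car3 went from 10.57 to 4.66 in DMSO and from 11.55 to 7.98 in treated arrays. Mthfd2 went from 10.92 to 6.18 and from 11.58 to 9.15, and Pi4k2b from 8.45 to 4.83 and from 8.6 to 7.62. Mnd1 went from 7.15 to 6.33 in DMSO but up from 7.86 to 9.25 in treated arrays.

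A further 85 genes (0.929%) were at background, log2 4 or less, in all 3 DMSO arrays and above it in all 3 treated arrays. For these only a lower bound of the fold change can be given, computed from the treated mean against log2 4. Ankrd1, a muscle ankyrin repeat protein and YAP target, read 10.11, 10.42 and 10.41 against 3.09, 2.97 and 3.01, at least 79.4-fold higher. The stress transcription factor Atf3 read 9.55, 9.39 and 9.59 against 3.02, 2.99 and 3.09, at least 45.5-fold higher. Hmox1, the heme oxygenase of the NRF2 response, read 8.99, 8.99 and 9.14 against 3.75, 3.67 and 3.78, at least 32.9-fold higher. No treated array of these genes came near the control values. At 6 h the DMSO means of Ankrd1, Atf3 and Hmox1 had been 7.41, 6.13 and 8.39, and the treated means 11.35, 12.36 and 12.59. Both arms were thus lower at 72 h than at 6 h.

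Several genes of this group are textbook muscle or cytoskeletal genes. Nppb, which encodes a natriuretic peptide of the heart, was at least 31.0-fold higher, skeletal actin Acta1 at least 13.5-fold, the muscle filament desmin (Des) at least 10.4-fold and the stathmin Stmn4 at least 7.96-fold. At 6 h Nppb and Acta1 had DMSO means of 10.18 and 9.33 and treated means of 11.44 and 10.32, so both arms were lower at 72 h. Stmn4 differed, with DMSO means of 2.1 at 6 h and 2.15 at 24 h. Creb5, a leucine zipper transcription factor, was at least 18.1-fold higher, and its other probe sets rose by 2.47 and 3.52, while one with a change of 0.81 did not pass the test. Padi3, a peptidylarginine deiminase, was at least 8.83-fold higher. Itgax, the integrin chain CD11c of dendritic cells, read 8.25, 8.03 and 8.17 against 2.70, 2.80 and 2.68, at least 17.7-fold higher. Of 14 leukocyte markers on the array, 11 were at background in all 6 arrays, among them the pan-leukocyte gene Ptprc, and Cd14 read 11.32 in treated and 11.29 in DMSO arrays (adjusted p = 0.832). Summed on the linear scale, the level of the leukocyte list ran from log2 11.77 to 11.85 in treated and from 11.30 to 11.38 in DMSO arrays.

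**Figure D2:**
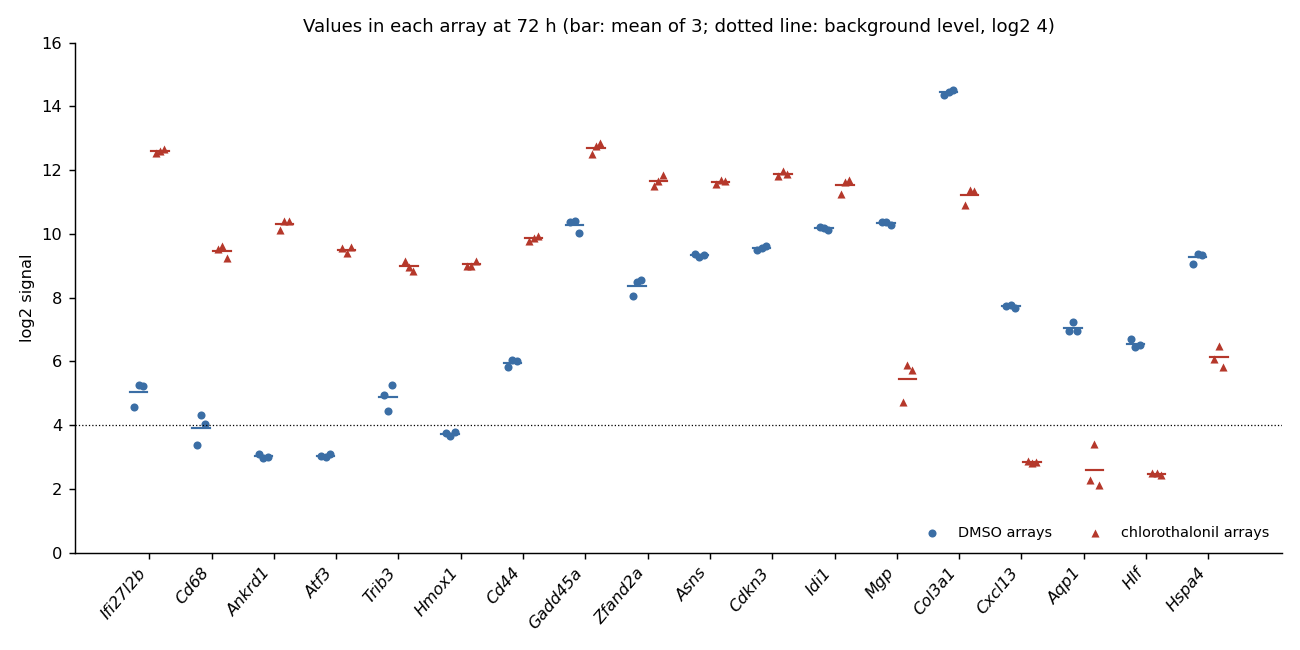
Log2 signal of 18 genes in each DMSO array (blue circles) and chlorothalonil array (red triangles) at 72 h, with bars at the mean of 3 arrays and a dotted line at the background level of log2 4. No gene shown has overlapping arms: the treated arrays lie higher from Ifi27l2b to Idi1 and lower from Mgp to Hspa4.

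The largest fall among named genes measured in both arms was that of Mgp. The gene encodes matrix Gla protein, an inhibitor of calcification, and read 4.74, 5.89 and 5.72 in treated arrays and 10.38, 10.37 and 10.28 in DMSO arrays, a 29.7-fold fall (log2 -4.89, SE 0.37, adjusted p = 2.47e-08). The secreted protein gene Fam180a read 4.01, 3.48 and 3.46 against 8.25, 8.25 and 7.90; its fitted 22.3-fold fall rests on treated values around the background level. Col3a1, the chain of fibrillar collagen III, read 10.92, 11.38 and 11.34 against 14.37, 14.46 and 14.53, a 9.46-fold fall. Treated arrays were lower than every control for each of these genes. At 6 h the DMSO means of Mgp, Fam180a and Col3a1 had been 3.68, 4.04 and 9.59, and the treated means 6.31, 4.02 and 10.05. Their control levels were thus higher at 72 h than at 6 h. Col12a1, a collagen that binds to fibrils, fell 9.81-fold, Podn, a small leucine-rich proteoglycan, 10.9-fold, the metalloprotease Adamts10 12.2-fold and Omd (osteomodulin) 7.80-fold. Another probe set of Adamts10 fell by only 1.22 on the log2 scale, and the treated values of Omd, from 3.75 to 4.10, lay around background.

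Other members of the 20 lowest genes had varied roles. Rtn1, a reticulon of the endoplasmic reticulum, fell 12.6-fold, the protocadherin Pcdhb12 10.6-fold, glycerol kinase (Gk) 10.2-fold and the C1 inhibitor Serping1 9.62-fold. Another probe set of Pcdhb12 fell by only 1.25 on the log2 scale. Hspa4, a large heat shock protein that recharges Hsp70 with nucleotide, read 6.06, 6.49 and 5.83 in treated arrays and 9.05, 9.38 and 9.35 in DMSO arrays, an 8.77-fold fall. Its arms did not overlap, and it fell while 13 other members of the heat shock list rose. The receptor Notch1 fell 8.51-fold, the acute phase protein Saa3 8.27-fold, the heparan sulfate enzyme Hs3st1 8.03-fold, and the transcription factor Hoxd4 7.02-fold. Treated values of Gk (4.19 to 4.27), Serping1 (3.78 to 4.11) and Notch1 (3.60 to 4.44) lay around background, so their folds are uncertain. Another probe set of Notch1 fell by only 0.64. Megf6, Smtnl2 and Bdh2 fell 9.30-fold, 7.19-fold and 6.96-fold. Capn1, a calcium-activated protease, fell 7.78-fold on average, with treated values from 3.96 to 5.68.

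At background in all treated arrays and above it in all DMSO arrays were 33 genes (0.361%), of which 32 passed the test. Cxcl13, a chemokine for B cells, read 2.88, 2.80 and 2.85 in treated and 7.73, 7.78 and 7.67 in DMSO arrays, at least 13.2-fold lower. Aqp1, the water channel of the proximal tubule, read 2.27, 3.40 and 2.12 against 6.95, 7.22 and 6.95, at least 8.23-fold lower. Hlf, a transcription factor of the circadian output family, was at least 5.87-fold lower (another probe set fell by 2.33), and Tet1, which oxidises methylated cytosine in DNA, at least 5.60-fold lower. For all 4 genes each DMSO array lay above log2 6 and each treated array below log2 4. Chst4, Celf5, Klhl29, Pced1b, Inhba and Hoxc5 followed, at least 3.60-fold to at least 2.35-fold lower. Inhba, the subunit of activin A, has another probe set with a change of 0.00.

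Genes under ATF4, the factor that raises amino acid supply when translation initiation stalls, were mostly higher as deposited. Of 36 members tested, 32 were called higher and 3 lower; their median lay 0.72 above that of all genes (0.80 as deposited, and 0.13 with poly-A scaling, where 7 were called higher and 3 lower). Trib3, a pseudokinase induced by ATF4, read 9.15, 8.97 and 8.84 in treated and 4.94, 4.44 and 5.27 in DMSO arrays, a 17.2-fold rise, and its other probe sets rose by 3.07 and 3.86. Asparagine synthetase (Asns) read 11.58, 11.69 and 11.65 against 9.37, 9.26 and 9.35, a 4.98-fold rise. Chac1, which degrades glutathione, rose 4.79-fold and Ddit3 (CHOP) 2.82-fold. Among the 27 aminoacyl-tRNA synthetases, which charge transfer RNAs, 18 rose and 2 fell as deposited (66.7% and 7.41%, against 37.2% and 27.0% of all genes). With poly-A scaling none was called higher and 5 lower, and the list median went from 0.60 to -0.07. Nars1 and Gars1 both rose 2.39-fold as deposited. The synthetase and ATF4 lists overlap, with Aars1, Iars1, Mars1, Nars1 and Yars1 among the shared genes, so their counts are not separate. The amino acid carriers Slc7a5 and Slc1a4 rose 3.64-fold and 2.45-fold.

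The letters TGATGNAAN, the composite element that ATF4 shares with C/EBP factors, were searched on both strands in RefSeq promoters of build GRCr8, which run from 250 bases before to 50 bases after each gene's start. They occurred in 11 of 33 promoters of the ATF4 list (33.3%), in 1.92% of the 7723 promoters of tested genes and in 3.80% of all 27457 promoters in the table. The list holds genes known to lie under ATF4, so its share is no measure of the response at 72 h. Promoters of genes called at least 2-fold higher held the letters in 2.16% and those called at least 2-fold lower in 2.22%. Of the 11 list genes with a match, 10 rose and Nupr1 fell by 1.42. The promoters of Trib3 and Chac1 are shown because these genes are among the most changed of the list that hold the letters. Trib3 lies at chr3:161275484-161275783 on the minus strand, with the match starting at -22 from the start, and Chac1 at chr3:126795881-126796180 on the plus strand, with the match at -168. Each is printed 5′ to 3′ along the gene with the matching letters in capitals, here on the opposite strand.
Trib3: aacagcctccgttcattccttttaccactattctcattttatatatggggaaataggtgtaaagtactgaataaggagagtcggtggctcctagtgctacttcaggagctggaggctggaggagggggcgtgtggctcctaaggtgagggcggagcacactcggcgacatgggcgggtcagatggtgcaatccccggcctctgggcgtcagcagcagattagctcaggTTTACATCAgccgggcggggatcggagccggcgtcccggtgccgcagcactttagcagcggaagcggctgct
Chac1: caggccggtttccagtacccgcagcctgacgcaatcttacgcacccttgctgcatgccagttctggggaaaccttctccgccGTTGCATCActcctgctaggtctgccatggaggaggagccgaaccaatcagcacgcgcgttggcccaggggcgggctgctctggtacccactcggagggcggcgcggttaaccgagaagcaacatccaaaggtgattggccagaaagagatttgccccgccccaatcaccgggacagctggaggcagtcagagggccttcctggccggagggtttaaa

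Targets of p53 had the highest median of the lists with at least 8 tested genes, 0.90 above that of all genes (0.98 as deposited, 0.31 with poly-A scaling). Of 20 tested, 15 were called higher and 3 lower as deposited, and 4 and 3 with poly-A scaling. Gadd45a, a DNA damage and growth arrest gene, read 12.52, 12.75 and 12.85 against 10.36, 10.42 and 10.04, a 5.40-fold rise. The kinase Plk2 rose 4.26-fold, Pvt1 2.82-fold, and Mdm2, which degrades p53, 2.79-fold with its other probe sets up by 0.74 and 2.38. The cell cycle inhibitor Cdkn1a (p21) read 12.50, 12.78 and 12.77 against 11.35, 11.33 and 11.55, a 2.42-fold rise. Arms did not overlap for any of these genes. Some of the list, Gadd45a included, are also known to answer other stresses.

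Cell division genes were mostly higher as deposited. Of 63 mitosis genes tested 59 were called higher and none lower at 72 h, and their median lay 0.70 above that of all genes (0.77 as deposited, 0.10 with poly-A scaling, where 6 were called higher and none lower). At an unadjusted p under 0.05, 0 were lower. Cdkn3, a phosphatase that acts on the cell cycle kinases, read 11.82, 11.98 and 11.87 in treated and 9.51, 9.56 and 9.61 in DMSO arrays, a 5.03-fold rise. The kinetochore subunit Spc24 rose 3.49-fold, the spindle protein Dlgap5 2.69-fold and Prc1, which bundles the midzone microtubules, 2.19-fold. Top2a, the topoisomerase of mitotic chromosomes, rose 1.33-fold as deposited and read 0.26 log2 units lower on the poly-A scale. Mki67, the common proliferation marker, read 11.98, 11.79 and 11.80 against 11.84, 11.93 and 11.91, and did not pass the test (adjusted p = 0.772). Its treated and control values overlapped.

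Of 53 DNA replication genes, 38 were called higher and 1 lower; the median lay 0.51 above that of all genes, 0.59 as deposited and -0.08 with poly-A scaling, where 1 was called higher and 6 lower. Thymidylate synthase (Tyms) rose 2.24-fold, the single-strand binding subunit Rpa2 2.03-fold, the clamp loader Rfc4 2.01-fold and primase Prim1 1.75-fold. The linker histone H1f2 went the other way, from 13.12 ± 0.01 to 11.06 ± 0.19, a 4.19-fold fall with no overlap. The 12 histone genes as a list had 3 rises and 3 falls.

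The letters TTTGAA, the cell cycle homology region through which many mitotic genes are held silent outside division, were found on either strand in 37 of 55 promoters of the mitosis list (67.3%). They occurred in 11.2% of the promoters of tested genes and in 18.1% of all promoters in the table. Genes called at least 2-fold higher held them in 12.9% of promoters and genes called at least 2-fold lower in 10.8%. The match nearest the start lay within 50 bases of it in 24 of the 37 mitosis promoters (64.9%) and in 26.5% of the 867 matching promoters among tested genes. Prc1 and Cdkn3 are shown as a close and a distant match. Prc1 lies at chr1:143659231-143659530, plus strand, with the match at -18, and Cdkn3 at chr15:22502136-22502435, plus strand, with the match at -149 in the opposite orientation. Capitals mark the matching letters, which in none of the printed promoters overlap a match to any other motif searched.
Prc1: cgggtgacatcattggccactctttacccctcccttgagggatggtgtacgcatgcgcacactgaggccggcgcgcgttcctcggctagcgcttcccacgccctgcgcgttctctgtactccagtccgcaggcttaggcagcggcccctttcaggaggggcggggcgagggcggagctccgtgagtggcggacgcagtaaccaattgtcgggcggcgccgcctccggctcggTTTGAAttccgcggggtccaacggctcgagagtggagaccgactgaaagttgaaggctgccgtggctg
Cdkn3: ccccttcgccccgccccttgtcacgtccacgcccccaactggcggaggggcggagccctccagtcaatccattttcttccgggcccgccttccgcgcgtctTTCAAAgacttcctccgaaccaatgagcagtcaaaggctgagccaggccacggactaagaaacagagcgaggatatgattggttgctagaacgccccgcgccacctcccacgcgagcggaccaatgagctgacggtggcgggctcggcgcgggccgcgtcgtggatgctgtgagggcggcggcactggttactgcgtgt

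**Figure D3:**
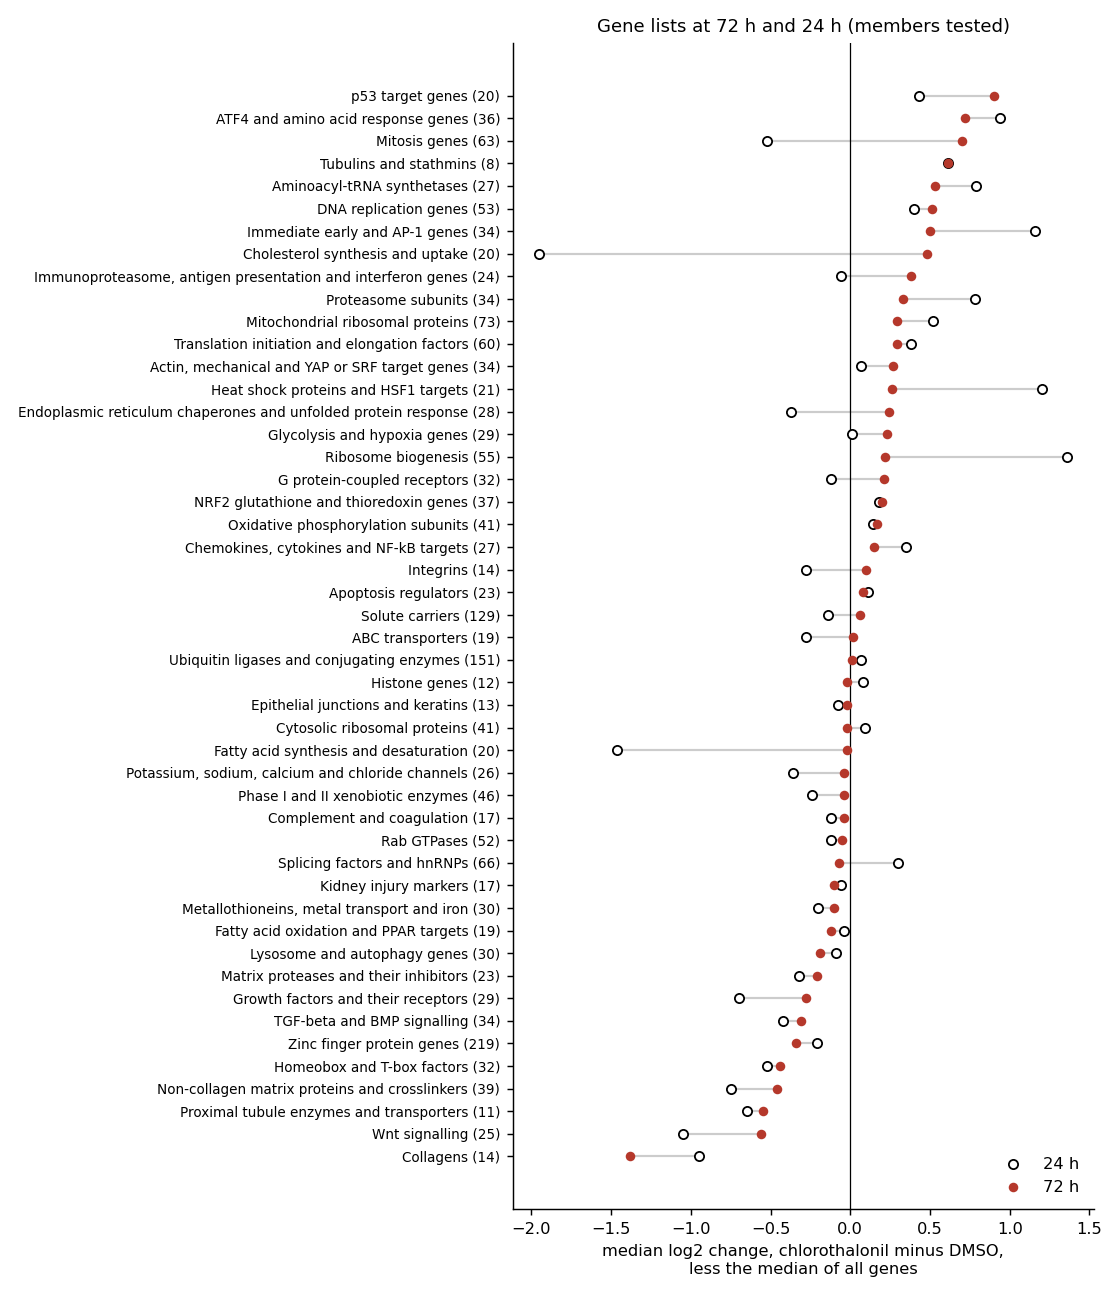
Median log2 change of each gene list with at least 8 tested members (number in brackets), less the median of all genes, at 72 h (red) and 24 h (open circles). At 72 h the lists run from -1.38 for the collagens to 0.90 for the p53 targets, and the mitosis and cholesterol lists lie below 0 at 24 h and above 0 at 72 h.

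Genes that detoxify oxidants rose in part. Of 37 NRF2, glutathione and thioredoxin genes, 22 rose and 6 fell, with a median 0.20 above that of all genes (0.28 as deposited, -0.39 with poly-A and -0.02 with hybridization control scaling). With poly-A scaling 4 were called higher and 8 lower. The largest rises beside Hmox1 were the aldo-keto reductase Akr1b8, 3.87-fold, the sulfiredoxin Srxn1, 3.22-fold, and Osgin1, 4.46-fold from a control level near background. The glutathione synthesis subunit Gclm rose 1.93-fold, biliverdin reductase Blvrb 1.90-fold and the quinone reductase Nqo1, read at 12.17, 12.28 and 12.09 against 11.39, 11.43 and 11.48, 1.68-fold. Thioredoxin reductase Txnrd1 rose 1.35-fold as deposited and read 0.24 lower on the poly-A scale. The superoxide dismutase of mitochondria, Sod2, rose 1.87-fold.

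Heat shock genes were higher in 13 and lower in 2 of 21 tested (median 0.26 above that of all genes; 0.33 as deposited, and -0.34 with poly-A scaling, where 3 were called higher and 2 lower). Hsph1, an Hsp110 chaperone, read 12.14, 12.34 and 12.28 against 10.73, 10.73 and 10.81, a 2.82-fold rise. The small heat shock proteins Cryab and Hspb1 rose 2.43-fold and 1.80-fold from high control levels. The inducible Hsp70 gene Hspa1a was at background in DMSO and read 4.53, 6.05 and 5.76 in treated arrays, at least 2.73-fold higher. The heat shock element, searched as 3 alternating GAA and TTC units with NN between neighbours, on both strands, occurred in 5 of 18 promoters of the list (27.8%), in 0.453% of those of tested genes and in 0.736% of the table. Of the 5 genes, Hsph1 rose, Hspe1 and Chordc1 rose by 0.45 and 0.33 as deposited, which is below 0 with poly-A scaling, Dnaja1 fell by 0.26, and Hspd1 changed by 0.08 without passing the test. Hsph1 is shown as the most changed of them; it lies at chr12:10427118-10427417 on the plus strand, with the match, in capitals, at -36.
Hsph1: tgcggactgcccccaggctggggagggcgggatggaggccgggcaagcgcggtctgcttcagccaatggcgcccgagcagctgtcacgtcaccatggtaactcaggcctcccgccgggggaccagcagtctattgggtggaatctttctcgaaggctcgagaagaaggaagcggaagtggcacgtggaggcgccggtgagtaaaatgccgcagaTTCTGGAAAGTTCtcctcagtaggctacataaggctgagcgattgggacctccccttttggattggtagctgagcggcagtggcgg

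Proteasome subunits were higher by small amounts on the deposited scale: 29 of 34 were called higher and 1 lower, with a median 0.33 above that of all genes (0.40 as deposited). With poly-A scaling the median was -0.27, with 1 called higher and 3 lower, and with hybridization control scaling 2 were higher and 1 lower. The regulatory particle genes Psmd8 and Psmd9 rose 2.94-fold and 2.56-fold. Among ubiquitin enzymes Ube2j1, which acts in degradation from the endoplasmic reticulum, read 10.91, 10.84 and 10.90 against 8.69, 8.69 and 8.54, a 4.73-fold rise, and the cullin Cul4b fell 3.27-fold. Of 28 genes for chaperones of the endoplasmic reticulum and the unfolded protein response, 16 rose and 7 fell (median 0.24 above that of all genes; 0.31 as deposited, and -0.36 with poly-A scaling, where 1 was called higher and 8 lower). Sel1l and Derl1, both of the degradation machinery, rose 2.13-fold and 2.78-fold; 2 other probe sets of Derl1 changed by 0.11 and -0.02 and did not pass the test. The folding enzyme Pdia4 fell 1.80-fold, and Manf rose 1.63-fold.

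Immediate early genes were unevenly affected. Of 34 tested 19 rose and 4 fell, with a median 0.50 above that of all genes (0.58 as deposited, and -0.09 with poly-A scaling, where 10 were called higher and 5 lower). Maff rose 3.62-fold and the growth factor Hbegf 3.03-fold. Fosb and Fosl1 were at background in DMSO and at least 2.50-fold and at least 2.33-fold higher in treated arrays. Fos itself fell 1.21-fold, from 11.46 ± 0.08 to 11.18 ± 0.08, and Egr1 read 10.67 and 10.64 and did not pass the test (adjusted p = 0.846). The AP-1 letters TGANTCA were present in 8.99% of the 556 promoters of genes called at least 2-fold higher and in 4.44% of the 315 of genes called at least 2-fold lower. They were present in 4.60% of those of all tested genes and in 7.33% of all promoters in the table. In the higher, lower and tested genes the heat shock element stood at 0.36%, 0.317% and 0.453%. The antioxidant response element, TGACNNNGC, stood at 15.6%, 12.7% and 14.7%, and at 21.9% of the 32 NRF2 list promoters. The sterol response element, TCACNCCAC, stood at 1.44%, 1.27% and 1.11%, and in 0 of 16 cholesterol list promoters.

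Interferon and antigen presentation genes had 12 rises and 4 falls among 24 tested (median 0.38 above that of all genes; 0.45 as deposited, and -0.22 with poly-A scaling, where 7 were called higher and 6 lower). Isg15, a ubiquitin-like modifier, read 8.14, 8.50 and 8.35 against 6.00, 6.56 and 6.24, a 4.19-fold rise. Ifi27 rose 3.0-fold and the peptide transporter Tap1 2.85-fold. Inflammatory genes outside this list also moved: cyclooxygenase Ptgs2 read 9.78, 9.49 and 9.52 against 7.18, 7.21 and 7.25, a 5.22-fold rise. The protease receptor F2rl1 rose 4.66-fold and the protein C receptor Procr 2.83-fold. The TWEAK receptor Tnfrsf12a rose 3.26-fold, the inflammatory caspase Casp4 3.37-fold, and the kinase Ripk1 fell 1.70-fold. The chemokine gene Ccl2 was at background in both arms at 72 h.

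Cholesterol genes were modestly higher than in the DMSO cells. Of 20 tested, 16 rose and 1 fell, with a median 0.48 above that of all genes (0.56 as deposited and -0.11 with poly-A scaling, where none was called higher and 2 lower). Idi1, an isoprenoid isomerase, read 11.26, 11.62 and 11.69 against 10.23, 10.19 and 10.12, a 2.54-fold rise. Insig1, the sterol sensor partner, rose 2.08-fold, and the synthesis enzymes Msmo1 and Fdft1 2.02-fold and 2.03-fold, although another probe set of Fdft1 fell by 0.88. Fatty acid synthesis genes showed no common direction, with 6 rises and 3 falls among 20 and a median -0.02 from that of all genes. The malic enzyme Me1, a source of NADPH, rose 1.86-fold and Acly, which makes cytosolic acetyl-CoA, fell 1.37-fold. Fatty acid synthase (Fasn) read 9.63 and 9.78 (adjusted p = 0.109), and Scd was at background in both arms. Cpt1a, which admits fatty acids to mitochondria, fell 1.54-fold.

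Translation and mitochondrial gene sets had small positive medians that turned negative on the poly-A scale, where at most 2 genes of each list given here were called higher. The 73 mitochondrial ribosomal protein genes had 49 rises and 4 falls (median 0.36 as deposited, -0.31 with poly-A scaling), with Mrpl55 up 2.72-fold and Mrpl47 2.37-fold. The 41 subunits of oxidative phosphorylation had 27 rises and 2 falls (0.24 and -0.43, and -0.05 with hybridization control scaling), with Ndufa5 of complex I up 2.20-fold and Ndufa2 1.96-fold. Translation factors had 39 rises and 5 falls among 60 (0.36 and -0.31), with Eif2d up 2.15-fold. Of 41 cytosolic ribosomal protein genes 31 did not pass the test. Glycolysis and hypoxia genes had 16 rises and 0 falls by limma's adjusted p, with 0 falls at an unadjusted p under 0.05, among 29 (0.30 and -0.37). These counts hold for the brightest probe set of each gene. Pdk1 and Higd1a, counted as rises, have other probe sets that were called lower, at -0.98 and -1.03 on the log2 scale. The phosphofructokinase Pfkp rose 4.29-fold from near background.

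Collagens had the lowest median of the lists, 1.38 below that of all genes (-1.31 as deposited, -1.98 with poly-A scaling). Of 14 tested, 12 fell and 2 rose. Beside Col3a1 and Col12a1, Col1a2 read 7.89, 8.40 and 8.40 in treated and 9.90, 10.04 and 10.11 in DMSO arrays, a 3.46-fold fall. Col1a1 fell 2.43-fold, Col16a1 2.84-fold and the basement membrane chain Col4a5 1.72-fold. Of 12 fibroblast markers on the array, 6 were at background in all 6 arrays, and 3 of the others, Col1a1, Col1a2 and Col3a1, belong to both lists. Summed on the linear scale, the level of the fibroblast markers ran from log2 12.57 to 12.80 in treated and from 14.68 to 14.82 in DMSO arrays. Col3a1 alone read 14.37 to 14.53 in DMSO arrays, so the fall of this sum mostly repeats that of Col3a1. Of 5 fibroblast markers tested, 3, the collagens, were called lower and 2 did not pass the test. The fibroblast marker S100a4 read 10.45 and 10.39 (adjusted p = 0.385). Whether a change in the share of such cells took part in the fall of the collagens was not tested.

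Other matrix genes fell more often than they rose, 25 against 8 of 39 (median -0.46 from that of all genes). Ltbp4, which stores latent TGF-beta in the matrix, fell 3.74-fold. Rises were seen for the glycoprotein Fbln2, 3.26-fold, the laminin chain Lamb3, 3.19-fold, and fibronectin (Fn1), read at 12.33, 12.64 and 12.64 against 11.60, 11.81 and 11.76, 1.76-fold. Matrix proteases split, 8 up and 10 down of 23 (34.8% and 43.5%, against 37.2% and 27.0% of all genes). Mmp12, macrophage elastase, was at background in DMSO and at least 6.41-fold higher, and Mmp10 at least 1.62-fold higher. The serine protease Htra1 rose 3.23-fold and the membrane protease Mmp16 fell 2.46-fold.

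Wnt, TGF-beta and growth factor lists held more falls than rises. No Wnt pathway gene among 25 was called higher and 14 were called lower by limma's adjusted p (1 higher at an unadjusted p under 0.05), with a median -0.56 from that of all genes. The Wnt receptors Fzd6 and Fzd1 fell 2.29-fold and 2.50-fold, the effector Tcf7l2 1.88-fold (another probe set fell by 2.23 on the log2 scale) and the scaffold Apc 1.55-fold. TGF-beta and BMP genes fell in 17 and rose in 6 of 34, and the BMP targets Id1 and Id3 fell 1.89-fold and 1.82-fold. Growth factors and their receptors fell in 14 and rose in 7 of 29 (48.3% and 24.1%). Gas6, a ligand of the Axl receptor, read 11.56, 11.56 and 11.61 against 13.29, 13.40 and 13.35, a 3.40-fold fall (another probe set fell by 0.69 on the log2 scale), Fgf18 fell 4.21-fold and Igfbp6 2.16-fold.

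Zinc finger, homeobox and T-box lists also held more falls than rises. Among 219 zinc finger protein genes 93 fell and 29 rose (42.5% and 13.2%), against 27.0% and 37.2% of all genes, with a median -0.34 from that of all genes; the other 97 did not pass the test. Zfp467 fell 2.74-fold, Zfp280c 2.31-fold, and Zfp622 rose 1.94-fold. Homeobox and T-box factors fell in 20 and rose in 4 of 32. Hoxc4 fell 2.57-fold, Hoxb3 2.69-fold, Hoxa10 1.83-fold and Tbx18 3.12-fold, and retinal dehydrogenase Aldh1a2, which makes retinoic acid, fell 3.35-fold.

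Of 52 proximal tubule enzymes and transporters on the array, 41 were at background in all 6 arrays. The labelled cell type thus showed in few of the genes that define it. All 14 distal nephron markers were at background, as were 9 of 11 endothelial markers. Of 11 proximal tubule genes tested, 4 rose and 6 fell. The creatine pathway enzyme Gatm read 9.50, 9.69 and 9.70 against 7.04, 7.40 and 7.68, a 4.78-fold rise, and Ggt1, the brush border enzyme that opens glutathione conjugates, was at background in DMSO and at least 3.11-fold higher. The scaffold Nherf1 fell 2.62-fold. Kidney injury markers had 7 rises and 6 falls of 17 (41.2% and 35.3%, against 37.2% and 27.0% of all genes). Among them Vim rose 1.33-fold as deposited but read 0.26 lower on the poly-A scale, and Krt8 did not pass the test (adjusted p = 0.120). The cornified envelope gene Sprr1a was at background in DMSO and at least 7.76-fold higher.

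Actin, mechanical and YAP or SRF target genes had 20 rises and 5 falls of 34 (median 0.27 above that of all genes; 0.34 as deposited, and -0.33 with poly-A scaling, where 7 were called higher and 6 lower). Csrp1, a muscle LIM protein, rose 3.22-fold and smooth muscle actin Acta2 1.74-fold. Of 19 ABC transporter genes 7 rose and 5 fell (36.8% and 26.3%), near the 37.2% and 27.0% of all genes; with poly-A scaling 2 were higher and 8 lower. Abcg2, which exports xenobiotics, read 8.48, 8.53 and 8.53 against 6.35, 6.15 and 5.97, a 5.13-fold rise, and the porphyrin transporter Abcb6 rose 3.32-fold. In iron handling Steap3, a ferrireductase, rose 2.47-fold and the transferrin receptor Tfrc fell 1.58-fold.

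The 72 h response differed from the response at 24 h in many genes. Each time has its own DMSO arrays, so the comparisons share no array. At 24 h 6418 genes (70.2%) were called, 39.1% of all genes higher and 31.1% lower, and 4378 were called at both times, 3319 in the same direction and 1059 in opposite directions. The difference between the effects was itself called for 5273 genes (57.6%), with the effect higher at 72 h in 27.9% of all genes and lower in 29.8%, and it was called for all 1059 opposite genes; with poly-A scaling it was called for 1469, and 126 genes were called in opposite directions. Across the 9148 genes, which are not independent replicates, the changes at both times correlated with Pearson's r of 0.45 and Spearman's rho of 0.41. Of the 3319 genes, 1030 had a called difference with the smaller change at 72 h and 536 a called difference with the larger change at 72 h.

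**Figure D4:**
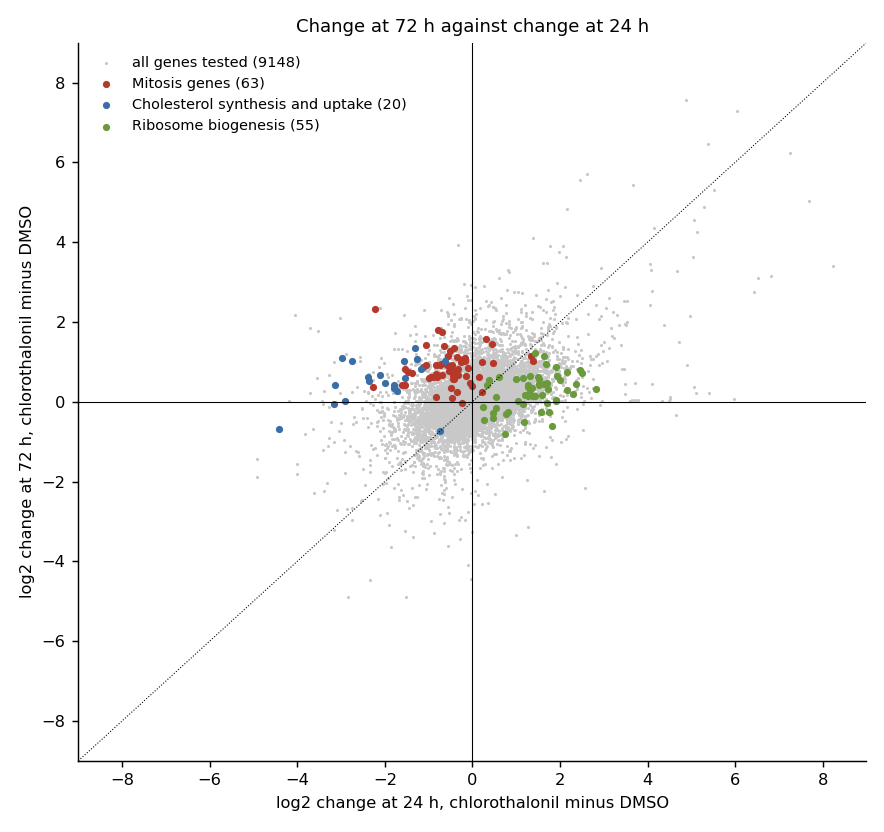
Log2 change at 72 h against log2 change at 24 h (chlorothalonil minus DMSO) for 9148 genes, with the mitosis, cholesterol and ribosome biogenesis lists coloured; the dotted diagonal marks equal changes. Most mitosis and cholesterol genes lie left of 0 and above 0 on the deposited scale, and ribosome biogenesis genes lie right of 0 and mostly below the diagonal.

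Mitosis genes were among those that turned. They had 48 falls and 6 rises at 24 h against 59 rises at 72 h; 45 of 63 were called in opposite directions, and the effect was called higher at 72 h than at 24 h in 57. With poly-A scaling 5 were called in opposite directions, and the effect was still called higher at 72 h in 51. Averaged over the list, the DMSO arrays read 9.97 to 10.21 at 24 h and 9.80 to 9.86 at 72 h. Chlorothalonil arrays read 9.38 to 9.65 and then 10.66 to 10.68, so the level in treated cells moved more between the times than the level in control cells. Cdkn3 fell by 2.23 at 24 h and rose by 2.33 at 72 h, a difference of 4.56 (SE 0.10, adjusted p = 1.81e-13).

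Cholesterol genes also turned, with the control cells moving more. All 20 fell at 24 h, and 16 were called in opposite directions at the times as deposited and none with poly-A scaling. The effect was called higher at 72 h in 19 genes on both scales. The mean of the list in DMSO arrays was 11.94 to 12.08 at 24 h and 9.01 to 9.06 at 72 h, while chlorothalonil arrays read 9.88 to 9.98 and 9.42 to 9.65. Fdft1 changed by -1.56 and then by 1.02. Fatty acid synthase, lower by 2.53 at 24 h, was among the genes that did not pass the test at 72 h.

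**Figure D5:**
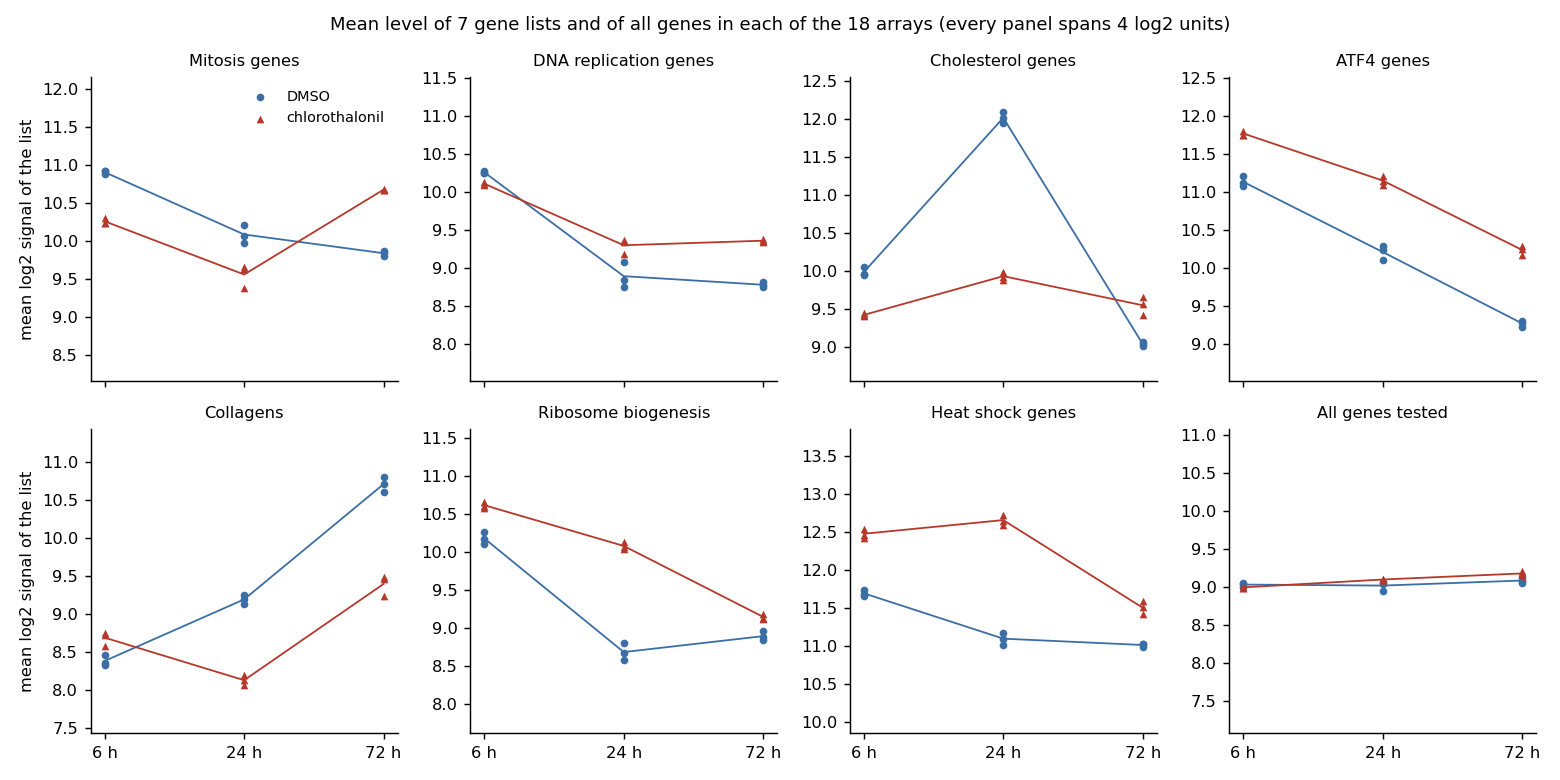
Mean log2 signal over the members of 7 gene lists and over all genes tested, in each array at 6 h, 24 h and 72 h (blue circles DMSO, red triangles chlorothalonil; lines join the means of 3 arrays; every panel spans 4 log2 units). The cholesterol list falls from 12.01 to 9.03 in DMSO between 24 h and 72 h, the mitosis list rises from 9.55 to 10.67 in chlorothalonil, and all genes stay between 8.94 and 9.21.

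Lists differed in how their effect at 72 h compared with that at 24 h. Over all genes the effect was called higher at 72 h in 27.9% and lower in 29.8%. With poly-A scaling it was higher in 1253 and lower in 216 of 9148 genes. On that scale DMSO replicate 1 of 24 h stood apart, with poly-A controls at 8.97 against 10.11 and 10.28 in replicates 2 and 3. This widens the spread of every gene, so a difference not called with poly-A scaling does not show equal effects. Of 55 ribosome biogenesis genes, all 55 rose at 24 h and 28 rose and 9 fell at 72 h; the effect was called lower at 72 h in 50 (13 with poly-A scaling). Heat shock genes had 21 rises of 21 at 24 h, and the effect was lower at 72 h in 15 (3 with poly-A scaling). Hsph1 rose by 3.0 at 24 h and by 1.50 at 72 h, and Akr1b8 by 3.48 and 1.95. The effect was called lower at 72 h in 22 and higher in none of 34 proteasome genes, and with poly-A scaling in none either way. The proteasome median difference was -0.42 as deposited and -0.02 with poly-A scaling, against -0.01 and 0.39 for all genes. Endoplasmic reticulum chaperones and unfolded protein genes went the other way, with the effect higher at 72 h in 19 and lower in 1 of 28 (5 and 0 with poly-A scaling), as did p53 targets, higher in 9 and lower in 2 of 20 (7 and 0). In the NRF2 list 9 effects were higher and 14 lower at 72 h of 37 (6 and 2 with poly-A scaling). Its median difference between the times was near that of all genes, -0.02 against -0.01 as deposited and 0.39 for both with poly-A scaling. In the ATF4 list the effect was called lower at 72 h in 16 and higher in 9 of 36 genes (1 and 7 with poly-A scaling). Trib3, up by 1.38 at 24 h and 4.11 at 72 h, was among the 9; its DMSO mean went from 8.73 at 24 h to 4.88 at 72 h. The mean of the ATF4 list fell in the DMSO arrays from 10.10 to 10.28 at 24 h to 9.22 to 9.30 at 72 h and in the chlorothalonil arrays from 11.09 to 11.20 to 10.17 to 10.28.

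Some 72 h changes were not called at 24 h. Of any size there were 793 such rises and 709 such falls, and in 1083 of these genes the difference between the times was called. Hapln3, near background in both arms at 24 h, changed by -0.33 then and 3.92 at 72 h (difference 4.25, SE 0.23, adjusted p = 1.89e-09), and Mnd1 by -0.03 and 2.92. Aqp1, Hlf, Serping1 and Tet1, lower in treated cells at 72 h, had both arm means below log2 4 at 24 h, so no fall could have been measured there. Their DMSO means stood at 2.14, 2.57, 2.07 and 3.85 at 24 h and at 7.04, 6.55, 7.25 and 6.49 at 72 h, while the treated means stayed below log2 4 at both times. The collagens, lower at 24 h in 11 of 14, were lower in 12 at 72 h, and the mean of the list in DMSO arrays stood at 9.13 to 9.24 at 24 h and at 10.60 to 10.80 at 72 h.

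Probe sets of a gene did not always tell the same story. Of 2598 genes with several measurable probe sets, all sets were called in 937, and they shared a direction in 679 of these (72.5%). In 332 genes probe sets were called in both directions. All values given come from the brightest measurable probe set of each gene.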

How the data were processed

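The authors deposited log2 values, 31099 probe sets by 18 arrays, and the submitters' processing notes name GCRMA as the method. Its version and background model are not given in the labels or the file. Array values carry no read depth, and 3 arrays per group limit the precision. Probe sets were named through the platform's annotation: 20832 carry 1 gene symbol, 436 several and 9831 none. A probe set was kept when above log2 4 in at least 3 of 18 arrays, and a gene was represented by its brightest kept probe set with 1 symbol. Log2 values of 9148 genes were fitted with limma 3.58.1 in R 4.3.3, as 6 group means over all 18 arrays, and p-values were adjusted by Benjamini-Hochberg over all genes. An arm was at background when its 3 arrays all lay at or below log2 4, and a gene at background in 1 arm has only a bound for its fold. Genes named are those called with arms that do not overlap: the 20 highest and 20 lowest, the 10 largest bounds in each direction, up to 4 members of each list with the smallest p, with Cd14 and S100a4 from the marker lists below the threshold. Named at any p were a fixed set of 36 genes, 29 of them tested, and list members whose promoters hold a motif, chosen after their values were seen. The members of the comparison, the gene lists and the named set were chosen with earlier results of these data known. The replicate numbers were not taken to pair the arrays. Deviations of same-numbered arrays correlated at 0.305, -0.044 and 0.075, and 0.305 was the highest value between the arms. With 3 arrays per arm this check cannot decide whether the arrays are paired. Promoter sequences are RefSeq's, build GRCr8, and 7723 genes matched by gene identifier. The scripts were tested on simulated data. Alternatives covered the filter, the scaling, the probe sets, the model and each array left out.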

Additional observations from a re-analysis of the deposited data

Results flagged for a closer look

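The effect of chlorothalonil at 72 h differed from that at 24 h in 5273 genes by limma's test of the difference, of which 1059 were called in opposite directions at the times. Among named genes, those lower at 24 h and higher at 72 h were the mitosis and replication genes Cdkn3 (effect at 72 h minus effect at 24 h 4.56 on the log2 scale), Spc24 (2.59), Dlgap5 (2.49), Top2a (1.96), Prc1 (1.49) and Tyms (1.48). The sterol genes Idi1 (2.67), Fdft1 (2.59), Insig1 (2.31) and Msmo1 (1.64) and the malic enzyme Me1 (1.18) turned the same way. So did the creatine enzyme Gatm (2.85), the neutral amino acid carrier Slc1a4 (2.29) and the secreted stress factor Manf (1.33). Higher at 24 h and lower at 72 h were the chaperone Hspa4 (difference -4.39), the zinc finger gene Zfp280c (-1.49), Fos (-1.20), the splicing factor Srsf9 (-1.18) and the kinase Ripk1 (-1.06). Inhba (-4.72) and glycerol kinase Gk (-4.35) were called the same way, but rest on arms at background: Inhba read 3.35 in DMSO at 24 h and 3.32 in treated cells at 72 h, with another probe set that changed by 0.00 at 72 h, and Gk read 2.83 and 3.83 in the arms at 24 h, both below log2 4. The sizes of these differences, and the rise of Gk at 24 h, are therefore not measured. Opposite calls with a called difference were the reason for listing each gene.

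The 5S ribosomal RNA control probe set, which enters no gene comparison, was 3.89 log2 units higher in the chlorothalonil than in the DMSO arrays at 72 h. The gap was not particular to 72 h. At 6 h the set read 10.77 to 11.02 in treated and 6.43 to 7.56 in DMSO arrays. At 24 h it read 12.91 to 13.13 and 6.50 to 7.85. The poly-A and hybridization controls differed between the arms by 0.67 and 0.29 at 72 h. Whether the 5S set moves with the scaling of the genes was not tested.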

How the results depend on the processing

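Scaling was the choice that moved the direction of the calls and the counts of at least 2-fold changes. Scaled totals fell below the 5880 of the main fit only where the arrays of all times were fitted together. With poly-A scaling 3776 genes were called, 312 of them higher, and at least 2-fold changes numbered 189 higher and 2076 lower. Background genes then numbered 46 higher and 97 lower, and the effects at 72 h and 24 h differed in 1469 genes. Scaling to the hybridization controls, chosen after seeing the data, left 1526 calls, 466 higher and 1060 lower, with at least 2-fold changes for 356 and 819 and a difference between the times for 901. A fit on the 6 arrays of 72 h alone was also chosen after seeing the data. There poly-A scaling called 6330 genes, 576 higher and 5754 lower (189 and 2076 at least 2-fold). Hybridization control scaling called 6152, 1800 higher and 4352 lower (356 and 818 at least 2-fold). In the fits over all times, arrays outside 72 h widen the spread of scaled values. DMSO replicate 1 of 24 h had poly-A controls at 8.97, against 10.11 and 10.28 in replicates 2 and 3. DMSO replicate 2 of 6 h had hybridization controls at 10.35, against 11.71 and 11.63 in replicates 1 and 3. With poly-A scaling, Txnrd1, Top2a and Vim turned to -0.24, -0.26 and -0.26, and to the same values on the arrays of 72 h alone. Leaving out chlorothalonil replicate 1 of 72 h from the poly-A scaling gave 298 higher and 1837 lower. The background level mattered for the genes measured in 1 arm: log2 3 gave 49 higher and 9 lower, log2 5 gave 61 lower, and asking for 2 of 3 arrays at background gave 54 lower. Leaving out each array in turn gave 5410 to 5987 called genes, 3049 to 3466 higher and 2156 to 2521 lower. At least 2-fold changes then ran from 631 to 698 higher and from 373 to 424 lower, and differences between the times from 4975 to 5403. Genes at background in 1 arm ran from 70 to 98 higher and from 19 to 41 lower, with 19 lower without DMSO replicate 1 of 72 h and 20 without replicate 3. With the replicate number as a block 3399 genes were higher and 2488 lower, and no named gene changed its call; not every array correlated best with its own number. Centring each array on its median gave 2885 higher and 3031 lower, 48.8% of the calls upward. The filter at log2 6 and no filter, quantile normalization, the mean over probe sets, the limma trend and array weights kept the counts of calls within 1.5 times. Signals near log2 4 carry little information on size, and probe sets of the same gene disagreed in direction in part.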

Other observations

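Some gene groups split without a common direction at 72 h. Of 66 splicing factor genes 22 rose and 23 fell, where 47 had risen and 5 fallen at 24 h. The U2 particle protein Snrpa1 read 10.95, 10.75 and 10.96 in chlorothalonil and 8.92, 8.88 and 8.94 in DMSO arrays, a 3.93-fold rise, and the splicing factor Srsf9 fell 1.93-fold. Of 30 lysosome and autophagy genes 9 rose and 13 fell (30.0% and 43.3%, against 37.2% and 27.0% of all genes). The lysosomal hydrolases Glb1 and Gusb fell 2.84-fold and 2.10-fold, while the membrane protein Scarb2 rose 2.75-fold. The ribosome assembly gene Nhp2 rose 1.93-fold, less than at 24 h by 0.72 log2 units.

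Of 129 solute carriers 53 rose and 32 fell (41.1% and 24.8%), near the 37.2% and 27.0% of all genes. With poly-A scaling 3 were higher and 46 lower (2.33% and 35.7%), near the 3.41% and 37.9% of all genes. Of 32 G protein-coupled receptors 15 rose and 10 fell (46.9% and 31.2%), and with poly-A scaling 1 was higher and 13 lower. The 8 tubulin and stathmin genes tested had 5 rises and 0 falls by limma's adjusted p, with 0 falls at an unadjusted p under 0.05, and a median of 0.68 as deposited and 0.01 with poly-A scaling. Among 3946 measurable probe sets without a gene symbol, 653 were called higher and 1578 lower (56.5% called) in a fit of all probe sets. Named genes, counted by their brightest probe set only, had more rises than falls. The units are unlike, so the balances are not directly comparable.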
